A study of Mus musculus with 23 samples.

Results

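Long-chain fatty acids are built in the cytosol from acetyl-CoA and are then lengthened on the endoplasmic reticulum, and 10 genes for the main enzymes of these steps were followed here in the mouse hippocampus. The members were the rows of the count table for Acly, Acaca, Acacb, Fasn, Elovl1, Elovl2, Elovl4, Elovl5, Elovl6 and Elovl7, taken by gene symbol, and all 10 were found among the 55335 genes of the table. ATP citrate lyase (Acly) makes acetyl-CoA from exported citrate, the acetyl-CoA carboxylases Acaca and Acacb make malonyl-CoA from it, and fatty acid synthase (Fasn) condenses both into palmitate. The Elovl proteins carry out the condensation step that lengthens a fatty acyl chain. Elovl1, Elovl6 and Elovl7 act mainly on saturated and monounsaturated chains, whereas Elovl2, Elovl4 and Elovl5 act on polyunsaturated or very long chains. Stearoyl-CoA desaturase (SCD), the target of the inhibitor in the infusion experiment, takes the saturated products of Fasn and Elovl6 as substrates. It makes monounsaturated fatty acids from them. In the brain these fatty acids go into the membranes of neurons and glia and into myelin.

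Polyadenylated RNA of whole hippocampus was sequenced in 23 libraries of 6 groups. Untreated mice of 8 months were wild type (WT-8M, 4 libraries) or 3xTg (3xTg-8M, 4 libraries). Mice of 10 months had received an infusion into the lateral ventricle for 28 days, either of vehicle, 0.8% DMSO in artificial cerebrospinal fluid (WT-D and 3xTg-D, 4 libraries each), or of the SCD inhibitor (SCDi, ab142089) at 80 µM in that same vehicle (WT-S, 3 libraries, and 3xTg-S, 4 libraries). Both arms at 10 months therefore carried a cannula, a pump and DMSO, and age, surgery and vehicle cannot be told apart between the 8-month and the 10-month groups, which were not compared. The labels give the WT strain as C57BL/6J x 129S1 and the 3xTg strain as B6;129-Psen1tm1Mpm Tg(APPSwe,tauP301L)1Lfa/Mmjax. Every 3xTg library carried the mutant App and tau transgenes, which a Thy1 element drives in neurons, together with the presenilin 1 knock-in, so the effect of a single allele cannot be separated. The WT mice were a strain control and not littermates, and the methods give the mice as female. Titles carry separate animal numbers, and each library is taken as 1 animal.

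The 8-month libraries held 12802267 to 36686413 reads counted to genes and the 10-month libraries 12992547 to 17575615. All 10 hippocampal marker genes and all markers of neurons, astrocytes, oligodendrocytes, microglia and endothelium were detected in every library, whereas 5 of 12 choroid plexus markers (Folr1, Kcne2, Aqp1, Slc4a5 and Otx2) had means under 1 count per 1000000 gene counts (CPM). The sum of all 12 choroid plexus markers was 723 CPM in 3xTg-8M replicate 4, 780 CPM in WT-S replicate 2 and 580.3 CPM in 3xTg-S replicate 2, against 207.7 to 381.9 CPM in the other 20 libraries. In 2 of these 3 libraries the level of a gene rose less with transcript length than elsewhere. The slope of log2 CPM on log2 length was 0.316 in 3xTg-8M replicate 4 and 0.356 in 3xTg-S replicate 2, against 0.430 to 0.567 in the other 21. The same 2 libraries had the highest sums of 5 blood markers (4 haemoglobin genes and Alas2), 98.56 and 208.3 CPM, against 4.787 to 67.2 CPM in the others. In bulk tissue, fewer cells of a type and less RNA per cell cannot be told apart.

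All 10 enzymes were expressed in every library, from a lowest count of 63 reads (Acacb) to a highest of 7557 (Fasn). To compare genes, levels were divided by the length of the longest annotated transcript. Acly was the most abundant member, with a median of 38.7 CPM per kilobase over the 23 libraries (36.1 to 44.2), and it stood above the next gene in all 23. Elovl5 followed at 30.1 CPM per kilobase (26.4 to 35.8) and Elovl4 at 24.6 (20.5 to 28.0). Elovl5 exceeded Elovl4 in 22 of 23 libraries. Fasn had a median of 23.4 CPM per kilobase (16.9 to 25.1) and lay below Elovl4 in only 16 of 23 libraries, so these neighbours did not differ beyond their spread. Elovl6, which makes stearate from palmitate, came next at 12.6 CPM per kilobase (10.8 to 14.9), below Fasn and above Elovl1 in all 23.

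The lower part of the order held the less abundant elongases and both carboxylases. Elovl1 had a median of 6.13 CPM per kilobase (3.80 to 7.57) and Elovl2 of 5.57 (3.99 to 6.68), and Elovl1 was the higher in 18 of 23 libraries. Acaca, the carboxylase of cytosolic synthesis, had a median of 4.07 CPM per kilobase (3.44 to 5.06) and Elovl7 of 3.93 (2.88 to 4.67), with Acaca the higher in 15 of 23 libraries. Acacb, the carboxylase at the mitochondrial outer membrane that restrains fatty acid oxidation, was the least abundant at 0.713 CPM per kilobase (0.489 to 0.855), below Elovl7 in all 23. With all annotated exons as the length, Elovl4 came before Elovl5, Elovl2 before Elovl1 and Elovl7 before Acaca, so the order within these pairs rests on the length used.

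**Figure D1:**
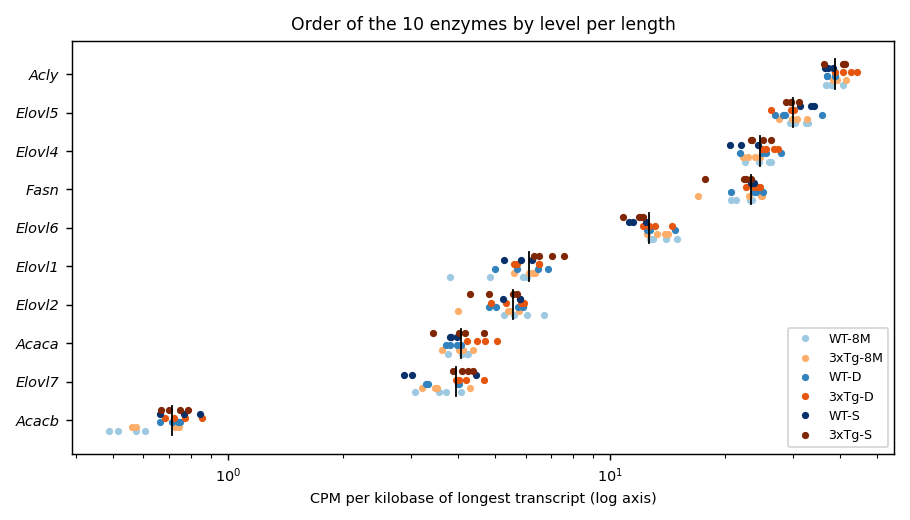
Level of each enzyme in CPM per kilobase of its longest transcript (x axis, logarithmic), with 1 point for each of the 23 libraries in the colour of its group and a black bar at the median. Acly lies highest at a median of 38.7 and Acacb lowest at 0.713, and the ranges of Elovl4 and Fasn, Elovl1 and Elovl2, and Acaca and Elovl7 overlap.

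The members varied little between animals. The coefficient of variation within groups ran from 4.42% for Acly to 13.8% for Elovl7, and the highest library exceeded the lowest by 1.22-fold for Acly and by 1.99-fold for Elovl1. The lowest Elovl1 value, 6.89 CPM, was in WT-8M replicate 1. Group means of a member differed from each other by at most 1.39-fold, for Acacb, whose mean was 4.80 ± 0.471 CPM (SD, n = 4) in WT-8M and 6.66 ± 0.648 CPM (SD, n = 4) in 3xTg-D, which are groups of different age and surgery.

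**Figure D2:**
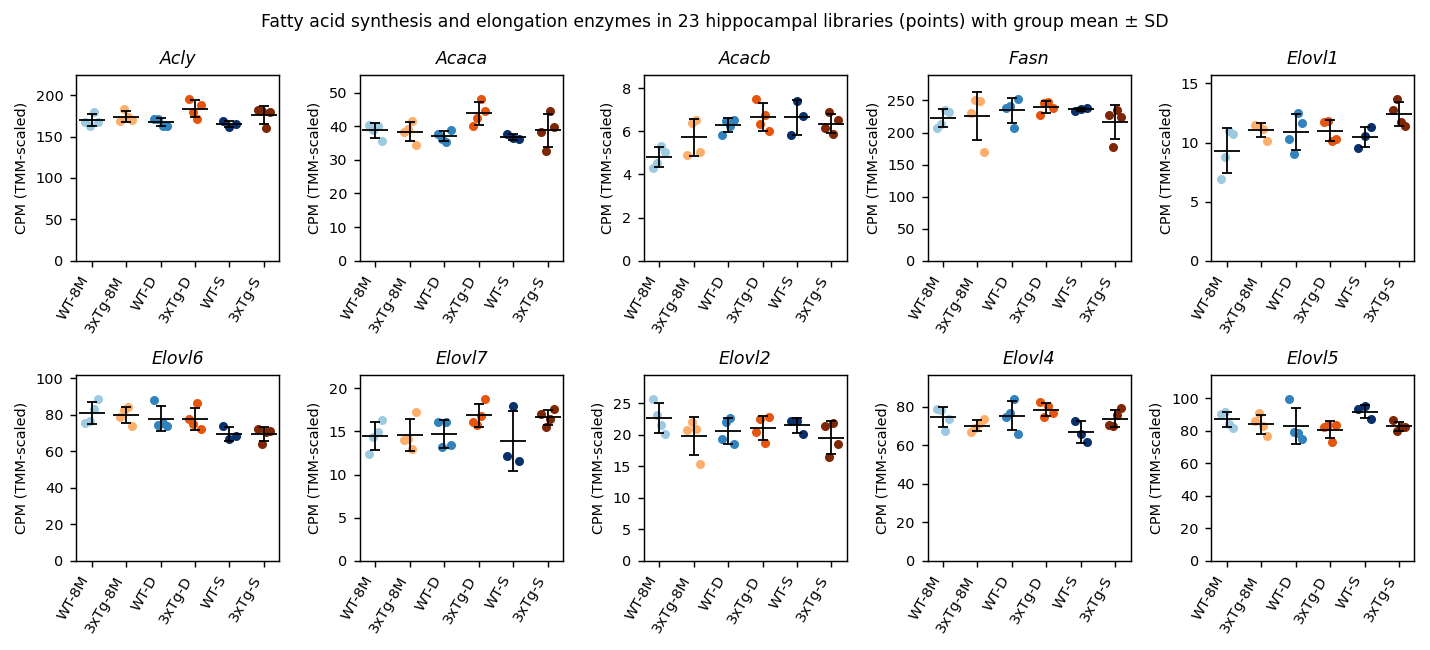
CPM scaled by TMM (y axis, from 0) of the 10 enzymes in each of the 6 groups, with 1 point per library and a black mark and bar for the group mean ± SD (n = 4, and n = 3 for WT-S). Elovl6 has its lowest means in both SCDi groups, 69.6 in WT-S and 69.6 in 3xTg-S, and Fasn has 1 low library in 3xTg-8M and 1 in 3xTg-S.

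At 8 months the comparison of 3xTg-8M with WT-8M asked whether strain alters these genes before any infusion. No member differed between the strains in edgeR's quasi-likelihood test with Benjamini-Hochberg adjustment (0 of 10 at an adjusted p under 0.05, against 2.58% of 15483 genes tested), and 0 of 10 had an unadjusted p under 0.05, against 17.4% of all genes. DESeq2 also called 0 of 10. The groups overlapped for every member, whereas they did not for 11.3% of all genes. The log2 fold changes of the 10 members had a median of 0.00, against 0.01 over all genes, with 5 higher and 5 lower, and they ranged from -0.20 (Elovl2) to 0.26 (Elovl1). Every 95% interval lay within a 1.5-fold change in either direction, the widest reaching 1.49-fold, and 7 of 10 lay within 1.3-fold.

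Fasn showed how far a single library can move such a comparison. In WT-8M its level was 207.4, 213.7, 235.4 and 232.6 CPM in the 4 libraries, and in 3xTg-8M it was 231.1, 251.2, 248.5 and 170.3 CPM. Of the 3xTg-8M libraries, 2 were above the WT-8M range, 1 was within it and the last was below it. That last library was the one with the length slope of 0.316 and a choroid plexus sum of 723 CPM, and Fasn has a transcript of 10050 bases, the longest of the members. The log2 fold change of Fasn was 0.02 (SE 0.11) with all 8 libraries and 0.13 (SE 0.06, unadjusted p = 0.0533, adjusted p = 0.272, edgeR) without 3xTg-8M replicate 4. With the trend on length and GC content of each library as an offset it was -0.02 (SE 0.06).

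Among the neighbouring genes of the pathway at 8 months, 2 desaturases, which act next on these products, were called lower in 3xTg. Of 49 tested genes in 7 lists (the other steps of the elongation cycle, desaturases, citrate export with acetate use and NADPH supply, mitochondrial fatty acid synthesis, regulators of lipogenesis, acyl-CoA synthetases and ceramide synthases), 2 were called by edgeR, both lower, against 2.58% of all genes. They were Scd1 and Scd3, stearoyl-CoA desaturases, and DESeq2 called 4 of 49, these and Fads6 and Acsl4. Of 7 tested desaturases 4 were lower at an unadjusted p under 0.05 in edgeR, against 17.4% of all genes in either direction. Scd2, the most abundant desaturase, was called by neither tool. It was at 1433 to 1571 CPM in WT-8M and at 1305 to 1388 CPM in 3xTg-8M, without overlap, as for 11.3% of all genes. Scd1 was at 169.2, 167.0, 179.9 and 176.3 CPM in WT-8M and at 140.3, 142.7, 141.3 and 119.2 CPM in 3xTg-8M. The groups did not overlap, as for 11.3% of all genes, and the log2 difference was -0.35 (SE 0.07, adjusted p = 0.0208). Scd3, at a much lower level, was at 3.58, 4.95, 4.88 and 4.66 CPM in WT-8M and at 2.324, 2.001, 2.402 and 2.22 CPM in 3xTg-8M, a log2 difference of -0.99 (SE 0.16, adjusted p = 0.00615). The study is about SCD and these genes were of interest to it partly on these libraries, so the pair is no independent evidence of a direction for the pathway.

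Short of the threshold at 8 months, 11 more of the 49 genes, 3 higher and 8 lower, were at an unadjusted p under 0.05, against 17.4% of all genes. The gene of smallest p in each list was as follows. Fads6, of the desaturase family, had a log2 fold change of -0.34 (adjusted p = 0.0622). Acsl4, an acyl-CoA synthetase with a preference for arachidonate, had one of -0.19 (adjusted p = 0.121), and 4 of 6 acyl-CoA synthetases were lower at an unadjusted p under 0.05, a level that 17.4% of all genes reached. Prkaa2, a catalytic subunit of the AMP-activated kinase that phosphorylates and inhibits the carboxylases, was at -0.21 (adjusted p = 0.255), and Pgd, an NADPH-producing enzyme of the pentose phosphate pathway, at 0.17 (adjusted p = 0.243). No gene of the elongation cycle, of mitochondrial fatty acid synthesis or of the ceramide synthases had an unadjusted p under 0.05.

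At 10 months the strains were compared within each infusion and over both. Under vehicle, Acaca and Acly had higher levels in 3xTg-D than in WT-D at an unadjusted p under 0.05 and did not pass the adjusted test. In that comparison 0 of 10 members were called by edgeR, against 1.39% of 15528 genes, and DESeq2 called 0 as well. Unadjusted, 2 of 10 had a p under 0.05, against 13.1% of all genes. The median log2 fold change of the members was 0.04, against -0.003 over all genes, with 8 higher and 2 lower and a range from -0.05 (Elovl5) to 0.24 (Acaca).

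The carboxylase Acaca was at 37.8, 36.3, 35.3 and 38.8 CPM in WT-D and at 40.1, 42.6, 48.2 and 44.6 CPM in 3xTg-D. All 4 3xTg-D libraries were above all WT-D libraries, which held for 7.79% of all genes in either direction and for no other member. The log2 fold change was 0.24 (SE 0.07, unadjusted p = 0.00453, adjusted p = 0.134). Most astrocyte markers and all microglia markers were also higher in 3xTg-D. Of 8 astrocyte markers 6 were higher in 3xTg-D, with 0 called and 2 below an unadjusted p of 0.05, and their score, the mean log2 CPM relative to all 23 libraries, was 0.022 to 0.157 in 3xTg-D and -0.167 to -0.015 in WT-D, with no overlap, although the summed CPM overlapped (4808 to 5634 against 4952 to 5149). Within groups, over the 23 libraries, Acaca had a Pearson r of 0.64 with that score. With the microglia score its r was -0.09, and with the oligodendrocyte score it was -0.56. It was -0.59 with the blood score, -0.53 with the choroid plexus score and -0.43 with the neuron score. Of 8 neuron markers 7 were lower in 3xTg-D. All 5 blood markers and all 7 tested choroid plexus markers were higher, and 0 of these 3 lists were called. All 8 microglia markers were higher, 1 of them called, with overlapping sums of 336.2 to 530.9 CPM in 3xTg-D and 343.1 to 391.7 CPM in WT-D. The part of these markers in the Acaca value was not tested. Acly was at 171.6, 171.4, 163.1 and 162.8 CPM in WT-D and at 195.6, 179.4, 171.4 and 188.1 CPM in 3xTg-D. The lowest 3xTg-D library was within the WT-D range, and the log2 fold change was 0.13 (SE 0.05, unadjusted p = 0.0246, adjusted p = 0.293).

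Under the inhibitor, 3xTg-S and WT-S were compared over 7 libraries. Again 0 of 10 members were called by edgeR or by DESeq2, against 1.32% of 15664 genes by edgeR, and 2 of 10 had an unadjusted p under 0.05, against 10.6% of all genes. Elovl1, which elongates saturated chains to the lengths used in sphingolipids, was at 9.53, 10.6 and 11.3 CPM in WT-S and at 12.8, 13.7, 11.8 and 11.4 CPM in 3xTg-S, with a log2 fold change of 0.25 (SE 0.11, unadjusted p = 0.0489, adjusted p = 0.468). Elovl5, which lengthens polyunsaturated chains, was at 93.4, 95.1 and 87.4 CPM in WT-S and at 86.5, 79.9, 82.7 and 82.7 CPM in 3xTg-S, with a log2 fold change of -0.15 (SE 0.06, unadjusted p = 0.0333, adjusted p = 0.406). For these 2 of 10 members the groups did not overlap, against 10.8% of all genes. Summed markers of oligodendrocytes, the cells that make myelin, were 6219 to 7047 CPM in 3xTg-S and 4199 to 5316 CPM in WT-S, with no overlap, and 4 of 10 were called, all higher. Summed microglia markers were 419.9 to 519.4 CPM in 3xTg-S and 355.1 to 380.9 CPM in WT-S, again with no overlap, with 8 of 8 higher and 3 called. The part of either list in these values was not tested. The median of the members was 0.04, against 0.00 over all genes, and the range was -0.15 to 0.26.

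With both infusions together, 8 3xTg libraries were set against 7 WT libraries with the infusion as a term. In edgeR 0 of 10 members were called, against 6.53% of 16262 genes, and 3 of 10 had an unadjusted p under 0.05, all higher, against 19.7% of all genes. DESeq2's likelihood ratio test called 1 member, Acly, at an adjusted p of 0.0386. In edgeR, Acly had a log2 fold change of 0.11 (SE 0.04, unadjusted p = 0.0069, adjusted p = 0.0803). Acly was at 169.1, 161.5 and 164.6 CPM in WT-S and at 182.0, 181.3, 159.9 and 180.2 CPM in 3xTg-S, so that 3 of 4 3xTg-S libraries were above and 1 below every WT-S library. Acaca had a log2 fold change of 0.17 (SE 0.06, unadjusted p = 0.0133, adjusted p = 0.121). Acaca was at 37.7, 36.4 and 36.2 CPM in WT-S and at 38.3, 32.7, 44.5 and 39.6 CPM in 3xTg-S, and the lowest of these was replicate 2, the library with the length slope of 0.356 and a choroid plexus sum of 580.3 CPM. Without that library the log2 fold change of Acaca over both infusions was 0.20 (SE 0.06) and its adjusted p was 0.018, and with all 15 libraries and the length and GC trend as an offset the adjusted p was 0.0238. Over all 20 alternative fits the adjusted p of Acaca ran from 0.018 to 0.204, and it was under 0.05 in 2. In this comparison 8 of 8 microglia markers were higher in 3xTg and 5 were called, and 7 of 8 astrocyte markers were higher and 0 called. Of 10 oligodendrocyte markers 8 were higher and 1 was called. Within groups, over the 23 libraries, Acly had a Pearson r of 0.433 with the oligodendrocyte score. Its r was 0.075 with the microglia score and -0.236 with the astrocyte score. The part of these 3 lists in the values of Acly, Acaca and Elovl7 was not tested.

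Elovl7, which elongates saturated chains and is expressed at a low level, was the remaining member of this set, with a log2 fold change of 0.22 (SE 0.08, unadjusted p = 0.0169, adjusted p = 0.138). It was at 16.1, 13.2, 16.1 and 13.4 CPM in WT-D, at 16.1, 15.8, 16.8 and 18.7 CPM in 3xTg-D, at 12.2, 17.9 and 11.6 CPM in WT-S and at 17.0, 15.5, 16.4 and 17.6 CPM in 3xTg-S. The WT-S library at 17.9 CPM stood above all 3xTg-S libraries and was replicate 2, where the choroid plexus markers summed to 780 CPM, and without it the log2 fold change was 0.30 (adjusted p = 0.0225). The lowest 3xTg-S library, at 15.5 CPM, was also a replicate 2, where those markers summed to 580.3 CPM. Over all 20 alternative fits the adjusted p of Elovl7 ran from 0.0225 to 0.275, and it was under 0.05 in 1. The other 7 members ranged from -0.10 (Elovl5) to 0.12 (Elovl1). The median over all 10 was 0.06, against -0.001 over all genes, and 9 of 10 intervals lay within 1.3-fold.

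**Figure D3:**
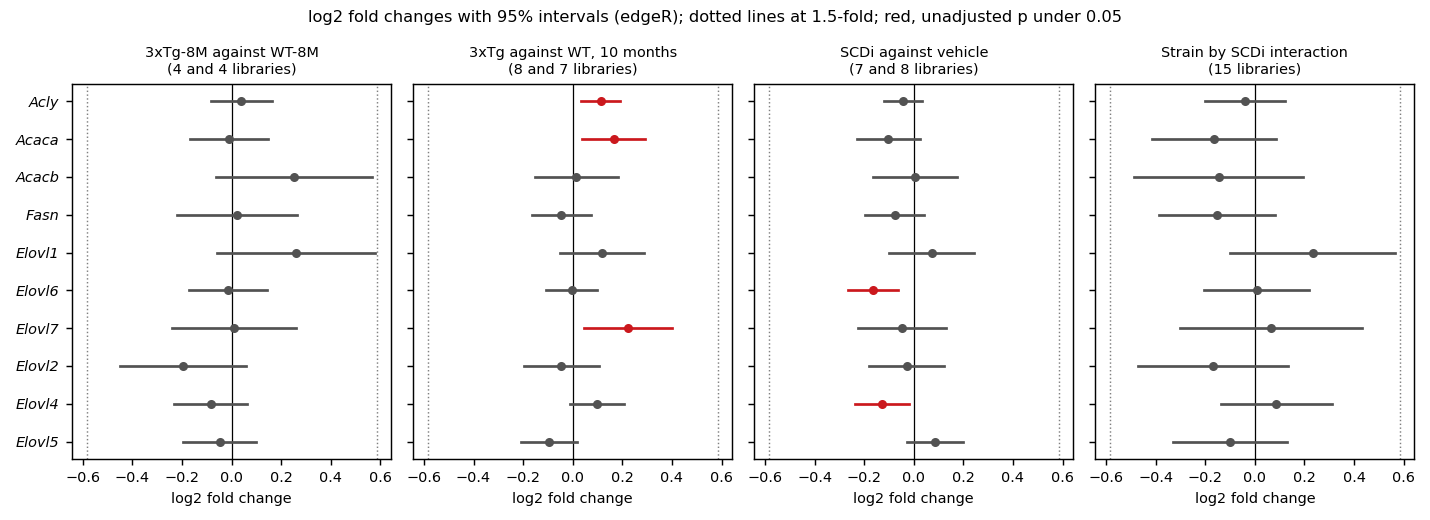
log2 fold change (x axis) of each enzyme with its 95% interval from edgeR in 4 comparisons: 3xTg-8M against WT-8M, 3xTg against WT over both infusions, SCDi against vehicle over both strains, and the interaction of strain and inhibitor. Points in red have an unadjusted p under 0.05, none passes the adjusted test, and all intervals lie within the dotted lines at 1.5-fold.

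The inhibitor comparison asked whether infusion of the SCD inhibitor changes the genes that make the substrates of SCD. The study assessed target engagement by fatty acids in periventricular tissue, so the degree of SCD block in the hippocampus is not known here. Elovl6 was the member of smallest p, being lower under SCDi in both strains at an unadjusted p under 0.05, and it did not pass the adjusted test. In each strain 1 of 10 members reached that p, against 11.2% of all genes within 3xTg and 3.42% within WT. Within a strain that p did not hold without single libraries given below, and markers of blood moved the other way. Over both strains, 7 SCDi libraries against 8 vehicle libraries, 0 of 10 members were called by edgeR (0% of 16262 genes were called) and 0 by DESeq2, which gave an adjusted p for 5 of them only, its own filter leaving out Acaca, Acacb, Elovl1, Elovl2 and Elovl7. Unadjusted, 2 of 10 members had a p under 0.05 in edgeR, both lower, against 13.6% of all genes. Elovl6 had a log2 fold change of -0.16 (SE 0.05, unadjusted p = 0.00337, adjusted p = 0.241), which is a fold of 0.892 with a 95% interval from 0.831 to 0.958.

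In WT-D Elovl6 was at 88.0, 74.7, 75.3 and 74.1 CPM and in WT-S at 73.8, 66.6 and 68.3 CPM. The highest WT-S library was just under the lowest WT-D library. In 3xTg-D Elovl6 was at 77.7, 75.1, 86.3 and 72.5 CPM and in 3xTg-S at 72.5, 64.2, 70.7 and 71.1 CPM. These groups touched, with 72.51 CPM in the lowest 3xTg-D library and 72.54 in the highest 3xTg-S library. Within WT the log2 fold change of Elovl6 was -0.17 (SE 0.07, unadjusted p = 0.0455, adjusted p = 0.981), within 3xTg it was -0.16 (SE 0.06, unadjusted p = 0.0256, adjusted p = 0.401), and the interaction of strain and inhibitor was 0.01 (95% interval -0.21 to 0.22). The value within WT leans on WT-D replicate 1, at 88.0 CPM, without which it was -0.10 (SE 0.06, unadjusted p = 0.139). It had an unadjusted p under 0.05 in 8 of 13 alternative fits. The value within 3xTg was -0.11 (SE 0.06, unadjusted p = 0.0887) without 3xTg-D replicate 3, at 86.3 CPM, and -0.08 (SE 0.06, unadjusted p = 0.16) with the length and GC trend as an offset. The lowest of the 15 values, 64.2 CPM, was again in 3xTg-S replicate 2, and without that library the log2 fold change over both strains was -0.15 (SE 0.05). It was -0.14 (SE 0.05) without WT-D replicate 1, and with the length and GC trend as an offset it was -0.10 (SE 0.04, unadjusted p = 0.024, adjusted p = 0.68).

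Blood markers moved against Elovl6. For SCDi over both strains 5 of 5 were higher, with a median log2 fold change of 0.99, 3 of them at an unadjusted p under 0.05 and 0 called by edgeR. Their sum was 21.66 to 32.08 CPM in WT-D and 34.86 to 41.4 CPM in WT-S, with no overlap, and 4.787 to 67.2 CPM in 3xTg-D and 29.98 to 208.3 CPM in 3xTg-S. The highest sum of all 23 libraries, 208.3 CPM, was in the 3xTg-S library where Elovl6 was at 64.2 CPM, and the lowest, 4.787 CPM, was in the 3xTg-D library where Elovl6 was at 86.3 CPM. Within groups, over the 23 libraries, Elovl6 had a Pearson r of -0.71 with the blood marker score, the largest in size of any member with any of the marker lists. The points share the length slope of the libraries, and the part of blood in the Elovl6 values was not tested.

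Elovl4, which makes the very long chains of retina, skin and brain, was the other member lower under SCDi over both strains, with a log2 fold change of -0.13 (SE 0.05, unadjusted p = 0.0241, adjusted p = 0.300). It was at 74.7, 76.7, 83.9 and 65.7 CPM in WT-D and at 72.8, 65.8 and 61.6 CPM in WT-S. In 3xTg-D it was at 82.3, 74.9, 80.4 and 76.6 CPM and in 3xTg-S at 70.4, 70.1, 75.5 and 79.2 CPM. The groups overlapped in both strains, and neither strain alone gave an unadjusted p under 0.05. The other 8 members ranged from -0.10 (Acaca) to 0.09 (Elovl5). The median of all 10 was -0.05, against 0.00 over all genes, with 3 higher and 7 lower. Every member's 95% interval for the inhibitor lay within 1.3-fold, the widest reaching 1.20-fold.

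Within each strain the counts were as small. For 3xTg-S against 3xTg-D, 0 of 10 members were called by edgeR (0% of 15530 genes were called) and 0 by DESeq2, which gave an adjusted p for 6 of them. There 1 of 10 members, Elovl6, had an unadjusted p under 0.05, against 11.2% of all genes, and no member was without overlap, against 7.04% of all genes. The members had a median of -0.08, against -0.002 over all genes, with 2 higher and 8 lower and a range from -0.18 (Acaca) to 0.18 (Elovl1). For WT-S against WT-D, 0 of 10 were called by either tool (0% of 15724 genes by edgeR). In this comparison 1 of 10 members, Elovl6, had an unadjusted p under 0.05, against 3.42% of all genes, and 1 of 10, again Elovl6, did not overlap, against 4.88% of all genes. The median was -0.02, against 0.00 over all genes, and the range was -0.17 (Elovl4) to 0.14 (Elovl5).

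The interaction test asked directly whether the inhibitor acted differently in the strains. In edgeR 0 of 10 members were called (0% of 16262 genes were called) and 0 of 10 had an unadjusted p under 0.05, against 2.32% of all genes, and DESeq2 called 0. The interaction terms ranged from -0.17 (Elovl2) to 0.23 (Elovl1) on the log2 scale, with a median of -0.07 against 0.00 over all genes. The intervals were wide here, with 4 of 10 within 1.3-fold and the widest reaching 1.48-fold.

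Treated 3xTg mice were also set against vehicle-treated WT mice, which share the WT-D libraries with the comparisons above. For 3xTg-S against WT-D, 0 of 10 members were called by edgeR, against 2.29% of 15567 genes, and 0 by DESeq2. Only Elovl6 had an unadjusted p under 0.05, which makes 1 of 10 against 16.9% of all genes, with a log2 fold change of -0.16 (SE 0.07, unadjusted p = 0.032, adjusted p = 0.248). Without WT-D replicate 1 it was -0.11 (SE 0.06, unadjusted p = 0.116), and without 3xTg-S replicate 2 it was -0.12 (SE 0.07, unadjusted p = 0.0899). All 3xTg-S values of Elovl6 (64.2 to 72.5 CPM) were below all WT-D values (74.1 to 88.0 CPM), and 10.5% of all genes were without overlap. Here 5 of 5 blood markers were higher and 1 was called, as were 4 of 10 oligodendrocyte and 4 of 8 microglia markers, all higher, and their part was not tested. Acaca, which was higher in 3xTg-D, had a log2 fold change of 0.07 (95% interval -0.12 to 0.25) here, and of -0.01 without 3xTg-S replicate 3. The members had 5 values above and 5 below 0, a range from -0.16 to 0.19, and a median of 0.01, against 0.00 over all genes.

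Fasn itself differed little by strain or infusion at 10 months, apart from 1 library. It was at 238.3, 242.0, 207.3 and 252.6 CPM in WT-D, at 227.8, 245.3, 247.3 and 238.8 CPM in 3xTg-D, at 233.8, 236.6 and 238.1 CPM in WT-S and at 227.6, 177.7, 234.7 and 224.7 CPM in 3xTg-S. The value of 177.7 CPM was in replicate 2, and all other libraries of 10 months were at 207.3 CPM or above. The log2 fold change of Fasn for 3xTg-S against 3xTg-D was -0.15 (SE 0.08, unadjusted p = 0.0709), and it was -0.07 (SE 0.05, unadjusted p = 0.158) without replicate 2 and -0.08 (SE 0.05) with the length and GC trend as an offset. For SCDi over both strains the fold was 0.948 with a 95% interval from 0.873 to 1.03. Across all 23 libraries the pair with the lowest length slopes was also the pair with the lowest Fasn, 170.3 and 177.7 CPM, and held the lowest Acaca (34.5 and 32.7 CPM) and Elovl2 values (15.3 and 16.4 CPM). The part of the length slope in these values was tested only by the offset above, and that of the choroid plexus markers, high in both libraries, was not tested. Elovl7 had its highest value among the 8 libraries of 8 months, 17.2 CPM, in that same 3xTg-8M library. In 3xTg-S replicate 2, by contrast, it had its lowest value of that group, 15.5 CPM.

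**Figure D4:**
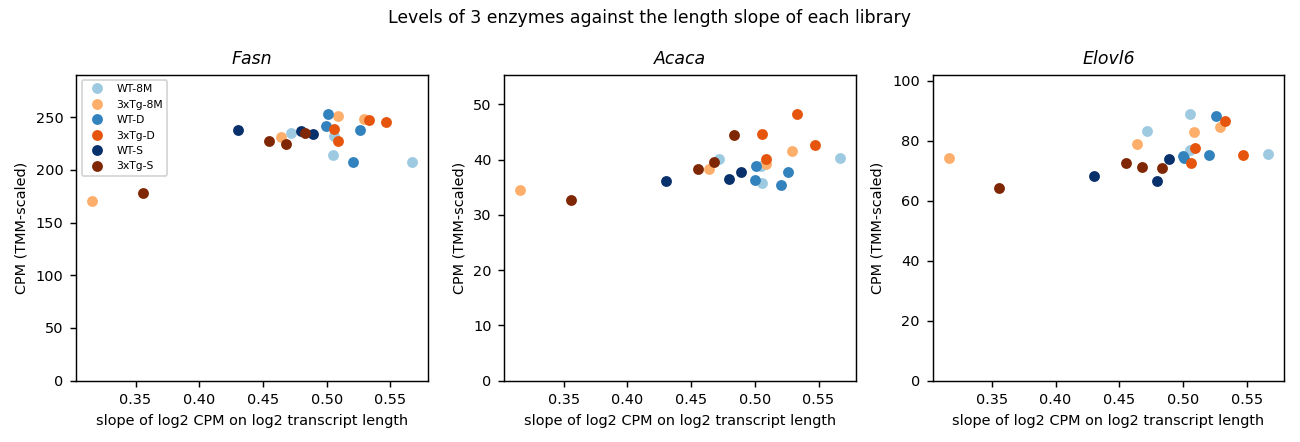
CPM scaled by TMM (y axis, from 0) of Fasn, Acaca and Elovl6 against the slope of log2 CPM on log2 transcript length of each library (x axis), with 1 point for each of the 23 libraries in the colour of its group. The 2 libraries at slopes of 0.316 and 0.356 hold the lowest Fasn values, 170.3 and 177.7.

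The rest of the pathway at 10 months also gave few calls. Under vehicle, 0 of 49 pathway genes were called between the strains by edgeR or DESeq2, and 5 had an unadjusted p under 0.05, against 13.1% of all genes. The gene of smallest p in each list was Scd3 at -0.45 (adjusted p = 0.338), Idh1, an NADPH-producing dehydrogenase, at 0.13 (adjusted p = 0.324) and Acsl6, an acyl-CoA synthetase of neurons and astrocytes, at -0.15 (adjusted p = 0.216). Under the inhibitor 0 of 49 were called between the strains by either tool, with 5 at an unadjusted p under 0.05, against 10.6% of all genes. Scd1 was at -0.22 (adjusted p = 0.276), the lipogenic transcription factor Srebf1 at -0.24 (adjusted p = 0.372), Acsl1 at -0.16 (adjusted p = 0.348) and the ceramide synthase Cers1 at -0.43 (adjusted p = 0.183).

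Over both infusions, 1 of 49 genes was called between the strains by edgeR, against 6.53% of all genes, and 3 by DESeq2 (Acsl6, Acsl1 and Cers1). Acsl6 fell by 0.13 on the log2 scale in 3xTg (SE 0.03, adjusted p = 0.0246). It was at 248.2, 240.6, 249.0 and 247.4 CPM in WT-D and at 237.6, 242.2 and 234.1 CPM in WT-S. In 3xTg-D it was at 222.3, 229.6, 204.2 and 235.1 CPM and in 3xTg-S at 210.2, 216.7, 230.8 and 224.0 CPM. In each infusion all 3xTg libraries were below all WT libraries of that infusion. Of all genes, 7.79% under vehicle and 10.8% under the inhibitor were without overlap in either direction. Below the threshold, the gene of smallest p in each further list was Scd1 at -0.16 (adjusted p = 0.126), Insig2, which retains SREBP in the endoplasmic reticulum, at 0.12 (adjusted p = 0.162), Acsl1 at -0.13 (adjusted p = 0.052) and Cers1 at -0.28 (adjusted p = 0.0636). In all, 5 genes with a higher and 7 with a lower level, 12 of 49, were at an unadjusted p under 0.05, against 19.7% of all genes.

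For SCDi over both strains, 0 of 49 pathway genes were called by edgeR, and 9 were at an unadjusted p under 0.05 (5 with a higher and 4 with a lower level), against 13.6% of all genes. Prkaa2 had the smallest p of them, with a log2 fold change of -0.23 (SE 0.05, unadjusted p = 0.000253, adjusted p = 0.241). DESeq2 called it, at an adjusted p of 0.0209, and no other of the 26 pathway genes to which it gave one. It was at 53.6, 43.7, 49.6 and 42.1 CPM in WT-D and at 40.3, 41.1 and 40.0 CPM in WT-S. In 3xTg-D it was at 42.6, 45.3, 46.4 and 40.2 CPM and in 3xTg-S at 35.0, 37.99, 36.7 and 37.8 CPM, so in each strain the SCDi libraries lay below the vehicle libraries. Of all genes, 4.88% within WT and 7.04% within 3xTg were without overlap in either direction. Hacd1, a dehydratase of the elongation cycle, was at 0.27 (adjusted p = 0.288), Acsl3 at -0.09 (adjusted p = 0.300) and Cers6 at -0.12 (adjusted p = 0.241). No desaturase had an unadjusted p under 0.05 for SCDi over both strains.

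Within 3xTg, 0 of 49 were called for SCDi by edgeR, nor any of the 28 with an adjusted p in DESeq2, and 8 had an unadjusted p under 0.05, against 11.2% of all genes, with Hacd1 at 0.37 (adjusted p = 0.401), Fads3 at 0.15 (adjusted p = 0.436), Prkaa2 at -0.24 (adjusted p = 0.378), Acsl4 at -0.14 (adjusted p = 0.378) and Cers6 at -0.15 (adjusted p = 0.378) as the genes of smallest p in their lists. Within WT, 0 of 49 were called by either tool and 2 had an unadjusted p under 0.05, against 3.42% of all genes, Prkaa2 at -0.22 (adjusted p = 0.981) being the one of smaller p. The interaction had 0 of 49 at an unadjusted p under 0.05, against 2.32% of all genes, and neither tool called any.

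For 3xTg-S against WT-D, 2 of 49 genes were called by edgeR, both lower, against 2.29% of all genes, and 4 by DESeq2 (these, Acsl6 and Cers4). Scd1 was at 153.5, 167.9, 147.2 and 159.0 CPM in WT-D and at 129.9, 129.4, 124.1 and 137.7 CPM in 3xTg-S, a log2 difference of -0.27 (SE 0.06, adjusted p = 0.0265). Prkaa2 differed by -0.36 on the log2 scale (adjusted p = 0.0373, SE 0.08) and lay at 42.1 CPM or above in WT-D and at 37.99 CPM or below in 3xTg-S. Of all genes, 10.5% were without overlap between these groups. This pair of groups differs in strain and in inhibitor at once. Below the threshold were Hacd1 at 0.45 (adjusted p = 0.136), Scd3 at -0.35 (adjusted p = 0.272), Thrsp, a lipogenic regulator, at 0.29 (adjusted p = 0.109), Acsl6 at -0.16 (adjusted p = 0.119) and Cers4 at -0.28 (adjusted p = 0.106).

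**Figure D5:**
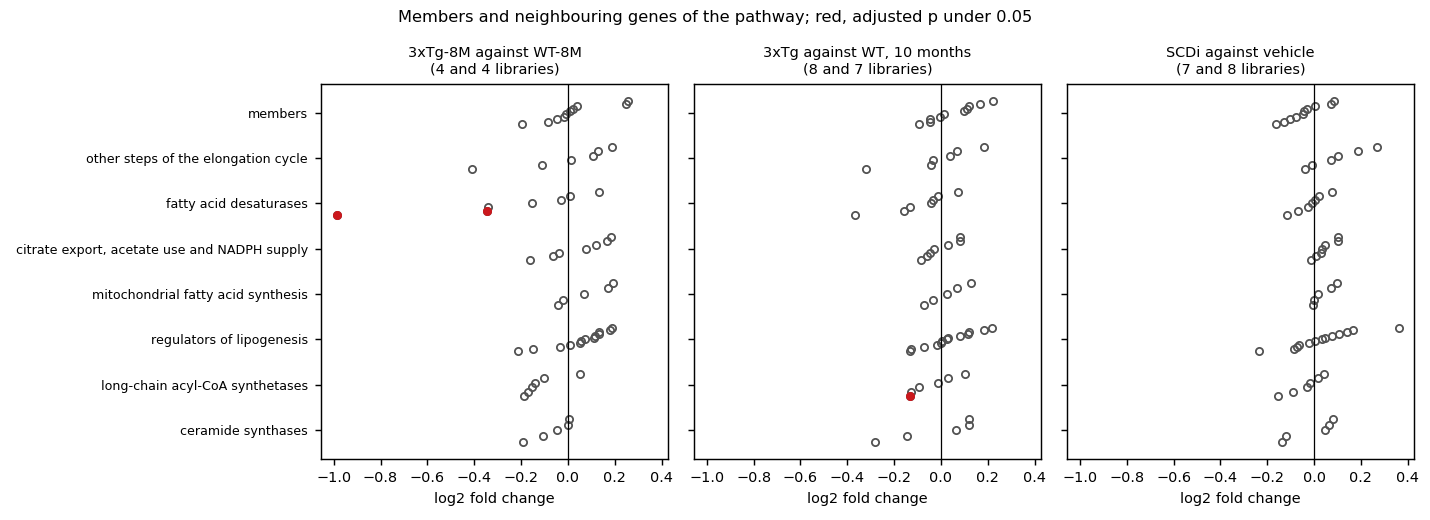
log2 fold changes (x axis) of the 10 members and of the tested genes of 7 neighbouring lists of the pathway (rows), with 1 circle per gene, in 3 comparisons. Filled red circles have an adjusted p under 0.05: Scd1 and Scd3 at 8 months, and Acsl6 between the strains at 10 months.

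The promoters of the members were read for motifs of factors known to act on lipogenic genes. RefSeq (GRCm38.p6) gave 12 promoters for the 10 genes, each from 250 bases before to 50 after the start, and 32851 in all. The only window of Acaca (chr11:84195188-84195487) lies inside the gene, which begins at 84129672 in the Gencode annotation. The only window of Acacb (chr5:114165268-114165567) likewise lies inside its gene, which begins at 114146535. The motif counts below therefore do not cover the Gencode starts of both carboxylases. A second window of Elovl1 (chr4:118429451-118429750) also lies inside its gene, which begins at 118428093. A window of Elovl2 (chr13:41220113-41220412) reaches only just past the start of its gene, at 41220405 on the minus strand. The bases before the start are shown for Fasn, the synthase itself, and for Elovl6, the member of smallest p under the inhibitor, with capitals for any match to the motifs named below. Each stretch stops short of the first base of the gene in the Gencode annotation. For Fasn that leaves all 250 bases before the RefSeq start, and for Elovl6, whose Gencode start lies upstream of the RefSeq start, it leaves 219 of the 250. The Fasn stretch lies at chr11:120824548-120824797 on the minus strand and the Elovl6 stretch at chr3:129532136-129532354 on the plus strand, and both are 5′ to 3′.
Fasn: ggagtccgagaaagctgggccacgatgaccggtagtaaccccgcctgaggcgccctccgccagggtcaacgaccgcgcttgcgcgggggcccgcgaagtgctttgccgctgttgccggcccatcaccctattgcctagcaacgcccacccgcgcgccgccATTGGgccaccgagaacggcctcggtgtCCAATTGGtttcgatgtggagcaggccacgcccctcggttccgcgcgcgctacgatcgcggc
Elovl6: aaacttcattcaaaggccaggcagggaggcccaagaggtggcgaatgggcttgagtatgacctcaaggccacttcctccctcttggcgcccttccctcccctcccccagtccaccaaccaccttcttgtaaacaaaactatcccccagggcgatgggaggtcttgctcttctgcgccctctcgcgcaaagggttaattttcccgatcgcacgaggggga
Motifs were searched on both strands. CCAAT, the core of the NF-Y box, was in 6 of 12 member promoters, against 37.4% of all promoters. Fasn held 3 matches and Elovl6 held none. Of the 3, 2 overlap as CCAAT and its reverse complement in the second run of capitals of the Fasn sequence. GGGCGG, the GC box, was in 6 of 12 member promoters, against 35.7% of all. These belong to 5 of the 10 genes, as both windows of Elovl1 hold it. CACGTG, the E-box, was in 2 of 12 (Elovl4 and Elovl5), against 7.15% of all. TCACNCCAC, the single form of the sterol regulatory element searched, was in 0 of 12, against 1.24% of all. With so low a share over all promoters, 0 of 12 cannot set the members apart from other genes. A match describes these letters in this window and does not show binding, and the lack of a match does not show that binding is absent.

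In the genome (GRCm38) Acly, Acaca and Fasn lie on chromosome 11, Elovl2 and Elovl7 on chromosome 13 and Elovl4 and Elovl5 on chromosome 9. Fasn spans chr11:120805846-120824547 on the minus strand and Elovl6 spans chr3:129532355-129638495 on the plus strand. Of the members, Elovl1 shares 53 exon bases with Cdc20 on the other strand and Elovl6 shares 34 with the uncharacterised genes Gm35986 and Gm43072. Whether counting used strand is not given, so reads in those bases could be missed or misassigned, and no other member shares an exon base with another gene in the annotation used.

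The levels of the members moved together only in part. From the deviations of log2 CPM from the group means over the 23 libraries, 28 of 45 pairs of members had a Pearson r above 0, with a median of 0.08. The highest was Acaca with Fasn at 0.70, followed by Fasn with Elovl6 at 0.54, and the lowest was Elovl1 with Elovl4 at -0.49. These values share library depth and the length slope of the libraries and are a description only. Among 11640 other genes averaging 5 CPM or more, the gene most like Fasn was Prrc2a (r = 0.949), the gene most like Acaca was Map3k4 (0.894) and the gene most like Elovl2 was Dnal1 (0.893). For Elovl6 it was Ptcd1 (0.863), for Elovl4 Nudt21 (0.859), for Elovl1 Fam219b (0.809), for Acly Trim36 (0.804), for Elovl5 Sh3glb1 (0.801), for Elovl7 Pantr1 (0.799) and for Acacb Map1s (0.709), all over 23 libraries. Each partner was picked as the highest of 11640 correlations, after the means of the 6 groups were taken out. A search of that size yields high values by itself, so these r values show no link.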

How the data were processed

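The authors prepared libraries from polyadenylated RNA, used Trimmomatic 0.35 to trim the single-end reads and STAR 2.5.1b for alignment to GRCm38 with a Gencode annotation, as the study's methods and the submitters' processing notes give it. The deposited values are raw counts of reads per gene, not normalised, filtered or pooled. The strand setting of the counting and any collapsing of molecular identifiers are not given in the sources used here. All 23 sample columns were used. Lines that name no gene held 24.7% to 30.9% of reads and entered neither library sizes nor tests.

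For each comparison of 2 groups, their libraries alone were fitted with edgeR 4.0.16 (R 4.3.3): filterByExpr, TMM scaling, the quasi-likelihood test and Benjamini-Hochberg adjustment over all tested genes, with a call at an adjusted p under 0.05. Additive and interaction models used the 15 libraries of 10 months. Unless DESeq2 1.42.0 is named, adjusted p-values come from this edgeR test. SEs of log2 fold changes were derived from F, and 95% intervals use the fit's degrees of freedom. They measure the uncertainty of a difference between groups, with a variance moderated over the tested genes, and not the spread of the libraries. Levels are CPM scaled by TMM over 23 libraries, and per kilobase they use the longest transcript in the Gencode M21 annotation of GRCm38, which gave a length for 55154 of 55335 genes. log2 CPM used a prior count of 2. The code was tested on simulated data.

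The members and gene lists were chosen with earlier results of these data known. Named genes are all members with a log2 fold change, SE and p at an unadjusted p under 0.05, some further values being given after they were seen, where a library or interval is discussed. Pathway genes are named if called, and of the rest at an unadjusted p under 0.05 the gene of smallest p in each list. Replicate numbers are in accession order. Titles at 10 months number the animals in runs of 4, with at most 1 animal of each group per run (none of WT-S in the first), and same-run libraries did not deviate together (mean correlation -0.01 over 21 pairs), so the fits have no block. Alternatives were DESeq2 size factors, no filter, DESeq2's likelihood ratio test, a length and GC offset, a replicate block, all 15 libraries in one fit, and leaving out each library.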

Additional observations from a re-analysis of the deposited data

Results flagged for a closer look

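Of 50 sets of 4 libraries of a member in a group, 3 held a library far from the other 3 by Dixon's criterion, where chance alone would mark about 1 in 20 sets. Acly was at 159.9 CPM in 3xTg-S replicate 3, against 180.2 to 182 CPM in the others. Elovl6 was at 88.03 CPM in WT-D replicate 1, against 74.09 to 75.34 CPM in the others. Elovl5 was at 73.36 CPM in 3xTg-D replicate 3, against 82.5 to 83.89 CPM in the others. Without WT-D replicate 1 the log2 fold change of Elovl6 for SCDi over both strains was -0.14 (SE 0.05), and within WT it was -0.10 (SE 0.06).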

How the results depend on the processing

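Of 140 alternative fits of the number of members called, 134 gave the same number, 0, and 6 gave 1, all for 3xTg against WT over both infusions. They were the length and GC offset (Acaca, adjusted p = 0.0238), DESeq2 (Acly, 0.0386), and leaving out 3xTg-D replicate 3 (Acly, 0.0461), WT-S replicate 2 (Elovl7, 0.0225), 3xTg-S replicate 2 (Acaca, 0.018) or 3xTg-S replicate 3 (Acly, 0.0259). Leaving out 1 library gave 0 to 1 members called there and 0 elsewhere. For 3xTg against WT over both infusions, adjusted p over the 20 alternatives ran from 0.018 to 0.204 for Acaca. It ran from 0.0259 to 0.162 for Acly and from 0.0225 to 0.275 for Elovl7. With the replicate block, by runs of animal numbers that did not pair the libraries, 0 members were called in each comparison of 10 months. Elovl6 kept a negative log2 fold change for SCDi over both strains in 20 of 20 alternatives, from -0.18 to -0.10, with adjusted p from 0.0635 to 0.68.

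Of the pathway genes called, Scd3 at 8 months was called in 12 of 12 alternatives. Scd1 at 8 months lost its call without WT-8M replicate 3 (adjusted p = 0.0605), WT-8M replicate 4 (0.0638) or 3xTg-8M replicate 1 (0.0571). For 3xTg-S against WT-D, Scd1 lost it in 6 of 14: all 15 libraries in one fit (0.0779) and without WT-D replicates 2 (0.0718) or 4 (0.0541) or 3xTg-S replicates 1 (0.0993), 2 (0.0508) or 3 (0.0624). Prkaa2 lost it there in 7 of 14: the replicate block (0.0608) and without WT-D replicates 1 (0.0865) or 3 (0.0845) or any 3xTg-S replicate (0.0583 to 0.134). Acsl6 over both infusions lost it in 4 of 20: no filter (0.0632) and without 3xTg-D replicate 1 (0.0519), WT-S replicate 2 (0.0528) or 3xTg-S replicate 1 (0.0633). No member at an unadjusted p under 0.05 and no called pathway gene changed sign in the comparison concerned. Values near 0 did: Fasn at 8 months kept its sign in 7 of 12 alternatives (-0.035 to 0.134), Acaca for 3xTg-S against WT-D in 13 of 14 (-0.01 to 0.142) and the Elovl6 interaction in 11 of 20 (-0.055 to 0.058). The causes were not tested.

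Over all genes, no filter on low counts moved the number called from 399 to 854 at 8 months, from 216 to 792 under vehicle, from 356 to 1135 for 3xTg-S against WT-D and from 206 to 729 under the inhibitor, and for SCDi over both strains from 0 to 94. For the interaction it moved from 0 to 8, within 3xTg from 0 to 112 and within WT from 0 to 2. DESeq2 called 684, 386 and 583 in the first 3 of these, 15 within 3xTg and 73 for SCDi over both strains. All 15 libraries in one fit called 355 under vehicle, and the replicate block 78 under the inhibitor. The lowest numbers without 1 library were 227 (without 3xTg-8M replicate 1), 125 (3xTg-D replicate 2), 155 and 105 (both 3xTg-S replicate 1). For the least abundant member, Acacb, with 63 to 161 counts, depth limits the precision.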
